A study of Homo sapiens with 6 samples.

Results

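The mitochondrial ribosomal proteins are described here in cells labelled as SW480, a line from a human colorectal adenocarcinoma. They were taken as the protein-coding genes of the deposited expression table whose symbols begin with MRPL or MRPS followed by a digit, which gave 78 of 58735 genes. The study compared 3 libraries labelled as overexpressing DDX39B, an RNA helicase of messenger RNA splicing and export, with 3 libraries labelled as wild-type control. All 6 carry the same cell line label and the same culture medium, L-15 with serum and without added CO2, and each was made from 1.3 µg of total RNA with a kit for messenger RNA. How DDX39B was overexpressed, and whether the replicates came from separate cultures, is not given in these sources, so the p-values measure only the spread between these samples. Levels are FPKM, the fragments per kilobase of gene length and scaled to the fragments of the library, as the authors deposited them.

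The labels were checked first, and DDX39B went against them. DDX39B had 15.0, 13.9 and 14.03 FPKM in DDX39B-labelled libraries, against 39.3, 34.6 and 41.9 FPKM in control-labelled libraries, which is 2.70-fold lower (log2 fold change −1.37, limma adjusted p = 6.93e-06). The groups are therefore called DDX39B-labelled and control-labelled throughout, and every direction below is that of the labels. Reads worked out from the table summed to between 16963075 and 17463697 per library. Pearson's r of log2(FPKM + 1) over genes was 0.974 to 0.991 within a group and 0.676 to 0.685 between the groups. Epithelial markers also differed: the 8 genes summed to between 1972 and 1996 FPKM in DDX39B-labelled libraries and to between 357.5 and 430.3 FPKM in control-labelled libraries, and 7 of 7 tested were higher. The eighth, the keratin KRT20, was under the filter and went the other way, with 6 reads over DDX39B-labelled and 80 over control-labelled libraries and groups that did not overlap. CDX2, a transcription factor of the intestinal epithelium, had 4.94, 4.97 and 4.48 FPKM in DDX39B-labelled libraries and was at 0 in the 3 control-labelled libraries. The keratin KRT19 had 495 to 509 FPKM in DDX39B-labelled libraries and 0.127 to 0.499 FPKM in control-labelled libraries. Leukocyte markers summed to 0.619 to 0.849 and 0.740 to 1.23 FPKM in DDX39B-labelled and control-labelled libraries, with CD3D and MS4A1 at 0 in all 6. Fibroblast markers summed to 1.54 to 1.67 and 4.2 to 8.14 FPKM, with PDGFRA at 0 in all 6, and endothelial markers to 1.04 to 1.43 and 35.9 to 50.5 FPKM, with KDR at 0 in all 6 and ESAM holding nearly all of the control-labelled sum. Within these lists VWF (326 and 24 reads) and LUM (29 and 1 reads) were under the filter and had more reads over DDX39B-labelled than over control-labelled libraries. The part of these differences in the results below was not tested. Whether all 6 libraries come from the same cell line, as labelled, was not tested either. In such bulk samples, fewer cells of a type and less RNA per cell cannot be told apart.

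Mitochondrial ribosomes sit in the mitochondrial matrix and translate the messenger RNAs of the mitochondrial genome, all of which encode subunits of the respiratory chain and the ATP synthase. Their small subunit decodes the messenger RNA, and their large subunit forms peptide bonds and releases the chain at the inner membrane. The ribosomal RNAs come from the mitochondrial genome, whereas every protein is encoded in the nucleus, made in the cytosol and imported. Many of these proteins have a counterpart in bacteria, while others were added in mitochondria, and in the unified nomenclature the added ones carry an m (mL or mS).

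The stretches upstream of 7 members are shown, because promoters of nuclear genes for mitochondrial proteins are known to carry sites for ETS factors such as GABPA, for NRF1, for YY1 and for SP1. They are the 3 lowest and the 3 highest members by fold change, and 1 member with both ETS and YY1 letters upstream of the start, chosen among the 26 members whose RefSeq start lay within 30 bases of the start in the deposited table. Each run is the 250 bases before the RefSeq start on the gene's strand, 5′ to 3′, from RefSeq on GRCh38.p14. Capitals mark the letters searched on both strands: CCGGAAG for ETS factors, AAGATGG for YY1, TGCGCA as an NRF1 half-site and GGGCGG for SP1. The ETS and YY1 letters can overlap in AAG.
MRPS30: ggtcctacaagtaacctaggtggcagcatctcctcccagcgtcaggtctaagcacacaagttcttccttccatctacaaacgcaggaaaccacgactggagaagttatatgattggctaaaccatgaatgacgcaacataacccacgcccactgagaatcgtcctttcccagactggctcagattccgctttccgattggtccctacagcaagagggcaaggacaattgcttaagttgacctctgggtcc
MRPL42: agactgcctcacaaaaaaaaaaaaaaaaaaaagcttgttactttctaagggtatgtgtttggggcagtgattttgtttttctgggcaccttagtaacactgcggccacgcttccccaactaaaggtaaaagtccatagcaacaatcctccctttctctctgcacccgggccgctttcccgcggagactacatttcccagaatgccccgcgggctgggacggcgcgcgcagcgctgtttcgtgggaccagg
MRPS10: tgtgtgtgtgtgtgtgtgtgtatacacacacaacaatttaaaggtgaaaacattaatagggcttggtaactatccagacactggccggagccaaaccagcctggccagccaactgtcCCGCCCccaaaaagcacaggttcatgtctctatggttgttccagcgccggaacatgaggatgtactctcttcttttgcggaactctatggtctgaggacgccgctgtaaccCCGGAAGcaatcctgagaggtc
MRPL57: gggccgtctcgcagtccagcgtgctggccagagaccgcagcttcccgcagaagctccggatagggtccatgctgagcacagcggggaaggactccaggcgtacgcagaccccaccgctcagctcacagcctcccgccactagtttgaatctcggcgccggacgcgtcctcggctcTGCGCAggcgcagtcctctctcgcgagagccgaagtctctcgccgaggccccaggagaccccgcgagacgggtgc
MRPS31: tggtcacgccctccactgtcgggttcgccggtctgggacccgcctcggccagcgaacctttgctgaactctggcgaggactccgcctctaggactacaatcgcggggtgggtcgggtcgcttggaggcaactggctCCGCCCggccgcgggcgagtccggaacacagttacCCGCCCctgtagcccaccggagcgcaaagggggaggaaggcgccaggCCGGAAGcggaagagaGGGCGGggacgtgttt
MRPL52: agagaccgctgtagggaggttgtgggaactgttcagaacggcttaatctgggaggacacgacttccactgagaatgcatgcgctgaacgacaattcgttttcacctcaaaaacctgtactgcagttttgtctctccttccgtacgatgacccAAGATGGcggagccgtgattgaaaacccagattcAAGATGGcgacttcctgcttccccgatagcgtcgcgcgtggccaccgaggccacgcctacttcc
MRPL47: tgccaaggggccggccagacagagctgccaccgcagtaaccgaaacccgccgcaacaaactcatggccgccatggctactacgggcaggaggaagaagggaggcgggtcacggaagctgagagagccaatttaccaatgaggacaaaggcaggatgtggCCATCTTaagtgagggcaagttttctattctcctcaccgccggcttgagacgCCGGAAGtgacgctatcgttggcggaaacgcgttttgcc
The runs lie at chr5:44808697-44808946 on the plus strand (MRPS30), chr12:93467264-93467513 on the plus strand (MRPL42), chr6:42217862-42218111 on the minus strand (MRPS10), chr13:21176408-21176657 on the plus strand (MRPL57), chr13:40771191-40771440 on the minus strand (MRPS31), chr14:22829637-22829886 on the plus strand (MRPL52) and chr3:179604639-179604888 on the minus strand (MRPL47). The runs of MRPS30 and MRPL42 hold none of these letters, although both carry the YY1 letters just past the start, from base 14 and base 9 of the transcript. MRPS10 has ETS letters beginning 22 bases before the start, and MRPS31 has ETS letters 32 bases before it together with 3 SP1 matches. MRPL52 carries the YY1 letters at 98 and 64 bases before its start, and ETS letters that run across the start. MRPS10 also carries the YY1 letters past its start, from base 10 of the transcript.

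Counted over windows from 250 bases before to 50 bases after the start, 69 of the 78 members had a RefSeq window. The ETS letters stood in 42% of these members, against 20.1% of 9322 tested genes with a window and 10.7% of all 27305 promoters. For the YY1 letters the shares were 33.3% of the members, 7.83% of the tested genes and 6.06% of all promoters. NRF1 half-sites stood in 20.3% of the members against 14% of the tested genes, and SP1 letters in 60.9% against 72.2%. Either ETS or YY1 letters were present in 43 of the 69 members (62.3%), against 26.1% of the tested genes, and both in 9 members (13.04% against 1.88%). By the calls given next, the ETS letters were found in 13 of 22 higher members, 12 of 31 lower members and 4 of 15 members past neither threshold. The YY1 letters were found in 7, 9 and 6 of the same groups, and the NRF1 half-site in 5, 3 and 6. These counts are a description, and no test of them was made.

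Members moved in both directions, and how many more were lower than higher depended on the scaling. Of the 77 members with a mean of at least 1 FPKM, 26 (33.8%) were higher in DDX39B-labelled libraries, 36 (46.8%) were lower and 15 (19.5%) did not pass an adjusted p of 0.05 (limma on log2(FPKM + 1), adjusted over 13972 genes). Over all tested genes 37.5% were higher and 39.3% lower, 76.8% in all. The 3 libraries of one group lay entirely above or below those of the other for 65 of the 77 members, and for 80.1% of all tested genes. Every member past the threshold was among these, so groups that do not overlap add nothing to the calls below. The median log2 fold change was −0.13 over the members and −0.03 over all tested genes. With FPKM rescaled to each library's sum of reads, and with voom on the reads, 30 members were higher and 32 lower, with a median of −0.03 and −0.02, against 0.07 and 0.08 over all genes tested there. Differences were small for most members: 8 (10.4%) had a log2 fold change of at least 1 in size, against 31.4% of all tested genes, and the group means lay within 1.5-fold of each other for 45 members (58.4%) and 40.1% of all tested genes. Lists most like the members had a similar share of differences of at least 1, with 8.54% of the cytosolic ribosomal proteins, 11.7% of the respiratory chain subunits and 6.25% of the mitochondrial translation factors. The SD of the log2 fold change was 0.71 among the members and 1.30 among all tested genes, while the median level was 19.4 FPKM for the members and 6.05 FPKM for all tested genes.

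**Figure D1:**
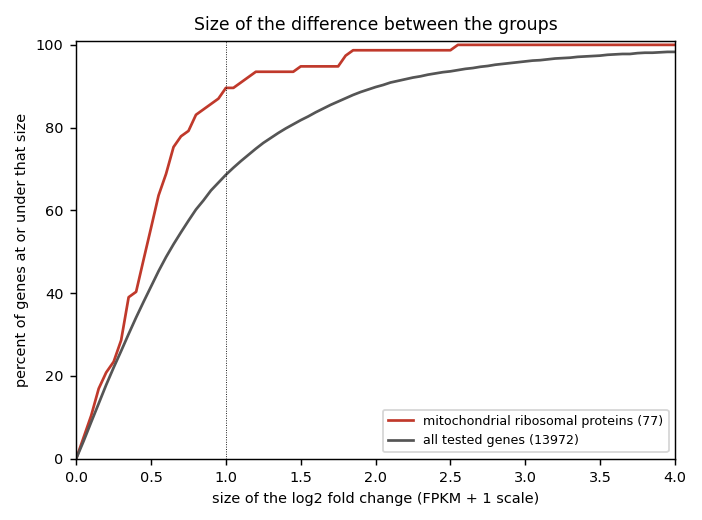
Size of the log2 fold change between DDX39B-labelled and control-labelled libraries (x axis, log2(FPKM + 1) scale) against the percent of genes at or under that size (y axis), for the 77 tested members and all 13972 tested genes. At the dotted line, a size of 1, 10.4% of the members and 31.4% of all tested genes were past it.

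Summed over the 78 members, the level was 1735, 1736 and 1696 FPKM in DDX39B-labelled libraries, against 1860, 1812 and 1857 FPKM in control-labelled libraries. All 3 DDX39B-labelled sums lay below all 3 control-labelled sums, but the members' share of the reads worked out did not separate the groups. That share was 0.410%, 0.414% and 0.404% in DDX39B-labelled libraries and 0.415%, 0.416% and 0.413% in control-labelled libraries. The deposited FPKM were scaled by a denominator of 1.04 to 1.05 times the sum of reads in DDX39B-labelled libraries and 0.958 to 0.995 times in control-labelled libraries. The members' share of all FPKM in a library does not depend on that denominator, and it did separate the groups. It was 0.586%, 0.599% and 0.590% in DDX39B-labelled libraries, against 0.640%, 0.634% and 0.636% in control-labelled libraries. Summed levels of the large subunit divided by those of the small subunit were 2.02, 2.02 and 1.96 in DDX39B-labelled and 1.89, 1.87 and 2.05 in control-labelled libraries, which overlapped.

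**Figure D2:**
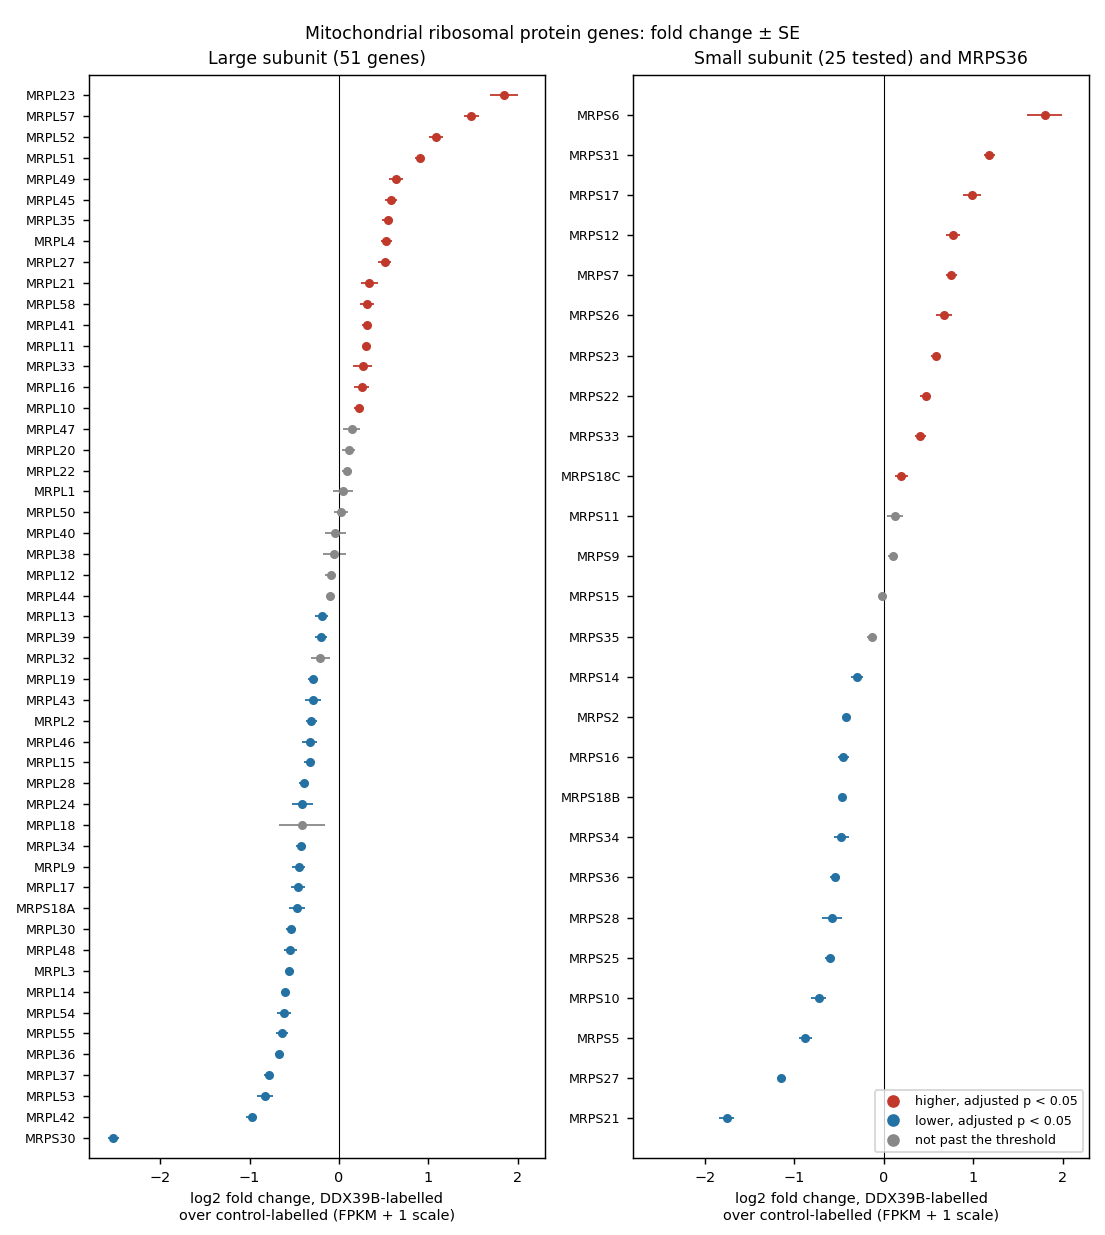
Log2 fold change, DDX39B-labelled over control-labelled, of each tested member (points, with bars for the SE), large subunit on the left and small subunit with MRPS36 on the right. Red points are the 26 members called higher, blue the 36 called lower and grey the 15 past neither threshold, and the values run from −2.52 for MRPS30 to 1.85 for MRPL23.

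In the large subunit, 16 of 51 members rose (31.4%), 24 fell (47.1%) and 11 did not pass the threshold, with a median log2 fold change of −0.19. Over all tested genes 37.5% were higher and 39.3% lower. Sorted by the unified names alone, the 30 with a bacterial counterpart split into 9 higher, 14 lower and 7 not past the threshold, and the 21 without one into 7, 10 and 4. MRPS18A (mL66) is counted among the latter by its name, although it is related to a bacterial protein. MRPS30 (ENSG00000112996, chr5:44808925-44820428), which sits in the large subunit as mL65 in spite of its symbol, had the lowest fold change of all members. MRPS30 had 5.01, 5.16 and 5.07 FPKM in DDX39B-labelled libraries, against 35.1, 31.3 and 35.6 FPKM in control-labelled libraries, 6.69-fold lower (log2 −2.52 ± 0.06 SE, adjusted p = 1.68e-07). The groups lay far apart, and the DDX39B-labelled values were nearly the same. MRPS30-DT, the divergent transcript on the other strand whose start lies 148 bases away, had 18 reads over DDX39B-labelled and 194 over control-labelled libraries and was under the filter.

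Several of the other large-subunit members with the largest falls were added in mitochondria. MRPL42 (mL42) had 2.40, 2.57 and 2.66 FPKM in DDX39B-labelled and 6.31, 5.75 and 5.86 FPKM in control-labelled libraries, 2.35-fold lower (log2 −0.98, adjusted p = 1.32e-05). MRPL53 (mL53) had 1.98, 2.55 and 2.25 FPKM against 4.70, 4.50 and 5.16 FPKM, 2.12-fold lower (log2 −0.83, adjusted p = 1.39e-04), with 45.2% of its exon bases also in CCDC142 on the same strand. MRPL37 (mL37), among the 5 members of highest level, had 40.8, 40.1 and 40.1 FPKM against 69.5, 68.04 and 73.4 FPKM, 1.74-fold lower (log2 −0.79, adjusted p = 8.75e-06). For each of these the 3 DDX39B-labelled values lay below the 3 control-labelled ones, as for every member called lower. Of proteins with a bacterial counterpart, MRPL36 (bL36m) had 29.7, 30.2 and 28.9 FPKM in DDX39B-labelled libraries, against 46.6, 46.0 and 50.2 FPKM in control-labelled libraries (log2 −0.67, adjusted p = 3.23e-05). MRPL55 (bL31m) had 9.53, 10.3 and 8.82 FPKM against 15.0, 15.7 and 15.7 FPKM (log2 −0.64, adjusted p = 1.30e-04). MRPL3 (uL3m), counterpart of a bacterial protein that reaches toward the peptidyl transferase centre, had 48.7, 46.3 and 47.8 FPKM against 72.0, 67.7 and 71.6 FPKM, 1.48-fold lower (log2 −0.56, adjusted p = 5.25e-05). Here too no value of one group reached the other, as in every called member. MRPL14 (uL14m), at the face toward the small subunit, fell by 0.60 on the log2 scale, and MRPL2 (uL2m), near the peptidyl transferase centre, by 0.31.

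MRPL23 (uL23m, ENSG00000214026, chr11:1947278-1984522), counterpart of a bacterial protein at the exit of the peptide tunnel, had the highest fold change of all members. MRPL23 had 10.7, 12.2 and 10.3 FPKM in DDX39B-labelled libraries, against 2.00, 1.95 and 3.23 FPKM in control-labelled libraries, 4.62-fold higher (log2 1.85 ± 0.15 SE, adjusted p = 3.91e-05). The groups did not overlap, and control replicate 3 was the highest of its group. H19, an imprinted non-coding RNA in the same region, had 0 reads over DDX39B-labelled and 661 over control-labelled libraries, at least 237-fold lower with a floor of 3 reads for the group. IGF2, also of that region, went the other way, with 54 reads over DDX39B-labelled and 0 over control-labelled libraries. MRPL23-AS1, on the other strand of MRPL23, had 23 and 13 reads. Both IGF2 and MRPL23-AS1 were under the filter. MRPL57 (mL63) had 40.9, 40.9 and 39.7 FPKM in DDX39B-labelled and 14.9, 14.8 and 12.1 FPKM in control-labelled libraries, 2.90-fold higher (log2 1.48, adjusted p = 6.09e-06). MRPL52 (mL52) had 21.7, 20.3 and 19.3 FPKM against 9.97, 8.41 and 8.97 FPKM, 2.24-fold higher (log2 1.09, adjusted p = 1.81e-05). MRPL51 (mL51) had 98.1, 97.2 and 89.5 FPKM against 49.4, 49.97 and 51.6 FPKM, 1.89-fold higher (log2 0.90, adjusted p = 7.70e-06), which made it the most abundant member in 2 of the 3 DDX39B-labelled libraries. In all 3 genes the DDX39B-labelled values stood above every control-labelled value, as in every member called higher.

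Smaller rises were seen in other working parts of the large subunit. MRPL41 (mL41), next in level, had 70.8, 76.0 and 71.0 FPKM in DDX39B-labelled libraries, against 58.8, 58.2 and 58.0 FPKM in control-labelled libraries (log2 0.31, adjusted p = 9.17e-04). MRPL45 (mL45), which stands by the tunnel exit facing the inner membrane, rose by 0.58 on the log2 scale, and MRPL58, a peptidyl-tRNA hydrolase that became part of the subunit, by 0.32. In the stalk that receives translation factors, MRPL10 (uL10m) averaged 21.0 ± 1.07 FPKM in DDX39B-labelled and 17.8 ± 0.162 FPKM in control-labelled libraries (SD, n = 3 each, log2 0.22, limma adjusted p = 0.00798), and MRPL11 (uL11m) at its base averaged 30.9 ± 0.942 and 24.7 ± 0.340 FPKM (log2 0.31, limma adjusted p = 8.58e-04). MRPL12 (bL12m), the mobile stalk protein carried by MRPL10, had 27.1, 30.5 and 27.0 FPKM against 29.6, 29.4 and 31.3 FPKM and did not pass the threshold (log2 −0.09, adjusted p = 0.227). Its groups overlapped, and 68.2% of its exon bases also lie in AC139530.2 on the same strand, which was at 0 in all 6 libraries.

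The remaining large-subunit members past the threshold also moved both ways. Of proteins with a bacterial counterpart, MRPL30 (uL30m) averaged 14.6 ± 0.343 FPKM in DDX39B-labelled libraries and 21.7 ± 0.901 FPKM in control-labelled libraries (SD, n = 3 each, log2 −0.53, limma adjusted p = 9.56e-05). MRPL17 averaged 25.6 ± 0.900 and 35.7 ± 3.13 FPKM (log2 −0.46), MRPL9 17.6 ± 0.989 and 24.4 ± 1.98 FPKM (log2 −0.45), and MRPL28 23.3 ± 0.786 and 30.8 ± 1.202 FPKM (log2 −0.39). MRPL34, MRPL24, MRPL15, MRPL19 and MRPL13 fell as well, by 0.43, 0.41, 0.33, 0.29 and 0.19 on the log2 scale. Rising members of this kind were MRPL35 with 11.2 ± 0.231 and 7.39 ± 0.554 FPKM (log2 0.54), MRPL4 with 12.02 ± 0.454 and 8.01 ± 0.489 FPKM (log2 0.53), MRPL27 with 17.4 ± 0.837 and 11.9 ± 0.921 FPKM (log2 0.51), and MRPL16 with 22.3 ± 0.776 and 18.6 ± 2.06 FPKM (log2 0.26). MRPL33 rose by 0.26. Among proteins added in mitochondria, MRPL54 averaged 18.5 ± 1.73 and 28.7 ± 0.868 FPKM (log2 −0.61), MRPL48 4.89 ± 0.156 and 7.60 ± 0.705 FPKM (log2 −0.54), MRPL43 10.1 ± 0.631 and 12.6 ± 1.45 FPKM (log2 −0.29) and MRPL39 23.97 ± 1.44 and 27.7 ± 1.26 FPKM (log2 −0.20), whereas MRPL49 stood at 39.5 ± 1.12 and 25.1 ± 2.39 FPKM (log2 0.64). On the other strand, 9.16% of the exon bases of MRPL49 lie in FAU and 11.6% in SYVN1. FAU had 171.5 to 187.2 FPKM in DDX39B-labelled and 129.2 to 142.1 FPKM in control-labelled libraries, and SYVN1 11.6 and 13.97 to 18.03 FPKM. Reads in these bases may bear on the level of MRPL49, which was not tested. The calls of MRPL13, MRPL16, MRPL24, MRPL33, MRPL39 and MRPL43 were lost in 4 to 10 of 14 alternative fits.

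In the small subunit, 10 of 25 tested members rose (40%), 11 fell (44%) and 4 did not pass the threshold, with a median log2 fold change of −0.02. Over all tested genes 37.5% were higher and 39.3% lower. By the unified names, the 15 tested members with a bacterial counterpart split into 5 higher, 7 lower and 3 not past the threshold, and the 10 without one into 5, 4 and 1. MRPS18B (mS40), related to a bacterial protein, is counted among the latter. MRPS21 (bS21m, ENSG00000266472, chr1:150293720-150308979) had 11.9, 12.7 and 11.4 FPKM in DDX39B-labelled libraries, against 43.8, 46.7 and 38.4 FPKM in control-labelled libraries, 3.59-fold lower (log2 −1.76 ± 0.08 SE, adjusted p = 2.65e-06). MRPS27 (mS27), a pentatricopeptide repeat protein, had 10.1, 9.29 and 9.78 FPKM against 22.9, 22.5 and 22.9 FPKM, 2.34-fold lower (log2 −1.15, adjusted p = 2.08e-06). Both genes showed a wide gap between the groups. MRPS5 (uS5m), whose bacterial counterpart lines the messenger RNA entry, had 9.97, 10.2 and 9.27 FPKM in DDX39B-labelled and 18.7, 17.4 and 20.6 FPKM in control-labelled libraries, 1.92-fold lower (log2 −0.88, adjusted p = 5.02e-05). MRPS10 (uS10m), of the subunit's head, had 19.3, 18.5 and 18.6 FPKM against 31.0, 28.95 and 35.8 FPKM, 1.70-fold lower (log2 −0.73, adjusted p = 1.83e-04). MRPS34 (mS34), the member of highest mean level, had 91.5, 88.7 and 92.2 FPKM against 135.0, 134.8 and 110.9 FPKM (log2 −0.47, adjusted p = 0.00189). None of these 3 overlapped between the groups, like every called member, and control replicate 3 was the lowest of its group for MRPS34.

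MRPS6 (bS6m, ENSG00000243927, chr21:34073224-34143034), whose bacterial counterpart pairs with that of MRPS18C on the platform, was the small-subunit member that rose most. MRPS6 had 41.9, 41.3 and 41.1 FPKM in DDX39B-labelled libraries, against 10.97, 8.19 and 15.5 FPKM in control-labelled libraries, 3.59-fold higher (log2 1.80 ± 0.20 SE, adjusted p = 1.59e-04). The DDX39B-labelled values were nearly equal, while the control-labelled values spread widely below them. SLC5A3, a myo-inositol transporter gene that shares 273 of the 4299 exon bases of MRPS6 (6.35%) on the same strand, had 46.0, 43.7 and 43.8 FPKM in DDX39B-labelled and 9.71, 7.06 and 20.8 FPKM in control-labelled libraries (log2 1.88, adjusted p = 0.00197). In both genes control replicate 3 was the highest and control replicate 2 the lowest of the control-labelled libraries, and reads in the shared stretch cannot be assigned to either gene here.

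MRPS31 (mS31) had 17.7, 17.6 and 17.8 FPKM in DDX39B-labelled libraries, against 7.42, 6.67 and 7.65 FPKM in control-labelled libraries, 2.44-fold higher (log2 1.18, adjusted p = 4.21e-06). MRPS17 (uS17m) had 5.10, 5.18 and 5.19 FPKM against 2.44, 2.25 and 1.69 FPKM, 2.42-fold higher (log2 0.98, adjusted p = 1.17e-04). Both stood above the control-labelled values, as did every member called higher. MRPS12 (uS12m), of the decoding centre, had 35.5, 38.1 and 34.9 FPKM in DDX39B-labelled and 20.6, 22.8 and 18.98 FPKM in control-labelled libraries, 1.74-fold higher (log2 0.77, adjusted p = 9.62e-05). MRPS7 (uS7m), an organiser of the head, had 24.5, 24.5 and 23.5 FPKM against 14.01, 14.9 and 12.9 FPKM, 1.73-fold higher (log2 0.75, adjusted p = 4.27e-05). MRPS26 (mS26) had 55.3, 57.2 and 60.3 FPKM against 40.7, 32.9 and 34.1 FPKM, 1.61-fold higher (log2 0.67, adjusted p = 3.92e-04). The groups of these 3 genes did not overlap, as in every called member. Head proteins stood on both sides, with MRPS7 higher and MRPS10 lower.

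The other small-subunit members past the threshold also split. Among those with a bacterial counterpart, MRPS28 averaged 3.79 ± 0.322 FPKM in DDX39B-labelled libraries and 6.20 ± 0.932 FPKM in control-labelled libraries (SD, n = 3 each, log2 −0.58, limma adjusted p = 0.00264). MRPS16 (bS16m), mutated in a human disorder of mitochondrial translation, averaged 30.8 ± 0.961 and 42.5 ± 2.91 FPKM (log2 −0.45), MRPS2 (uS2m) 35.3 ± 0.299 and 47.4 ± 1.16 FPKM (log2 −0.42), and MRPS14 (uS14m) 10.1 ± 0.491 and 12.7 ± 0.813 FPKM (log2 −0.30). Of proteins added in mitochondria, MRPS25 averaged 9.11 ± 0.136 and 14.4 ± 0.544 FPKM (log2 −0.60), while MRPS23 averaged 10.8 ± 0.569 and 6.85 ± 0.0997 FPKM (log2 0.58), MRPS22, another gene mutated in such a disorder, 14.2 ± 0.244 and 10.03 ± 0.718 FPKM (log2 0.47), and MRPS33 5.78 ± 0.317 and 4.10 ± 0.110 FPKM (log2 0.41). No value of one group reached the other in any of these 8 genes, as in every member past the threshold. The call of MRPS14 was lost with voom (adjusted p = 0.0504). Of its exon bases 13.5% lie in CACYBP on the other strand, which had 17.9 to 18.8 FPKM in DDX39B-labelled and 44.3 to 79.0 FPKM in control-labelled libraries.

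**Figure D3:**
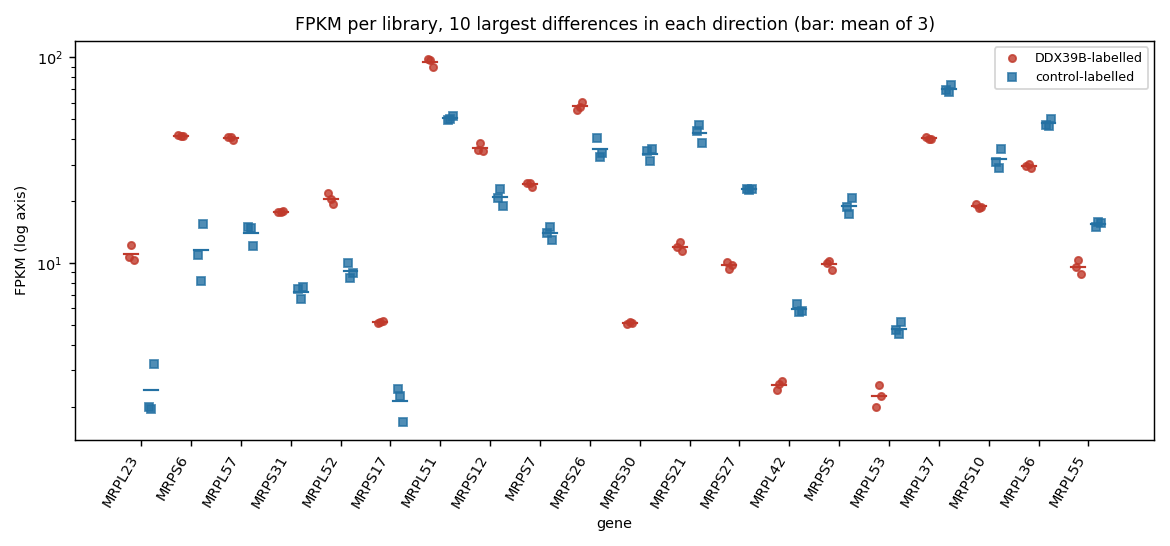
FPKM in each library (log axis) of the 10 members that rose most and the 10 that fell most. Circles are DDX39B-labelled and squares control-labelled libraries, short bars are means of 3, and the distance is widest for MRPS30, 6.69-fold lower, and MRPL23, 4.62-fold higher.

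The 3 paralogues MRPS18A, MRPS18B and MRPS18C descend from 1 bacterial protein, take different places in the mitochondrial ribosome and did not move together. MRPS18C (bS18m), which holds the bacterial position, had 2.73, 2.72 and 2.66 FPKM in DDX39B-labelled libraries, against 2.03, 2.31 and 2.35 FPKM in control-labelled libraries (log2 0.20, adjusted p = 0.0348). MRPS18B (mS40), elsewhere in the small subunit, had 36.9, 35.6 and 36.1 FPKM against 51.5, 50.7 and 49.4 FPKM (log2 −0.47, adjusted p = 7.70e-05). MRPS18A (mL66), in the large subunit, had 10.7, 13.02 and 12.99 FPKM against 16.3, 17.1 and 18.5 FPKM (log2 −0.47, adjusted p = 0.00266). Values of MRPS18C lay above, and those of the other two below, all control-labelled values. The call of MRPS18C was lost in 7 of 13 alternative fits, and its exon bases lie to 40.2% in ABRAXAS1 on the other strand.

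A pair of members stood apart from the rest of the list. MRPS36 (KGD4), now known as a subunit of the oxoglutarate dehydrogenase complex and not of the ribosome, had 9.49, 9.73 and 9.29 FPKM in DDX39B-labelled libraries, against 14.8, 13.4 and 14.8 FPKM in control-labelled libraries (log2 −0.55, adjusted p = 1.55e-04). MRPS24 (uS3m) was under the filter, with 0.0651, 0.275 and 0.193 FPKM against 0.211, 0.295 and 0.618 FPKM, which were 25 and 49 reads in all. Its groups overlapped, and 606 of its 2613 exon bases (23.2%) are shared with the readthrough gene URGCP-MRPS24 on the same strand.

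The 15 tested members past neither threshold were MRPL1, MRPL12, MRPL18, MRPL20, MRPL22, MRPL32, MRPL38, MRPL40, MRPL44, MRPL47, MRPL50, MRPS9, MRPS11, MRPS15 and MRPS35. The largest difference among them was that of MRPL18 (uL18m, chr6:159789812-159798436), whose bacterial counterpart binds the small RNA of the large subunit and of which a cytosolic form made under heat shock has been described. MRPL18 had 41.9, 38.3 and 38.0 FPKM in DDX39B-labelled libraries, against 47.3, 38.0 and 81.9 FPKM in control-labelled libraries (log2 −0.42, adjusted p = 0.182). Control replicate 3 stood far above the other 5 libraries, and the log2 fold change was −0.11 without it and −0.65 (adjusted p = 0.0374) without control replicate 2. Heat shock genes were looked up after these values were seen. TCP1, a subunit of the cytosolic chaperonin whose start lies 63 bases from that of MRPL18 on the other strand, had 42.3, 42.4 and 43.2 FPKM in DDX39B-labelled and 55.0, 50.6 and 74.9 FPKM in control-labelled libraries. HSPA6, an inducible chaperone, had 0, 0.0234 and 0.0708 FPKM against 41.5, 19.8 and 159.7 FPKM. The mitochondrial chaperonin gene HSPD1 had 213, 215 and 216 FPKM against 221, 204 and 307 FPKM. In these genes, too, control replicate 3 was the highest library. Whether these values are linked was not tested.

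Several members lie head to head with another gene. With starts within 1 kb of each other on opposite strands, 14 pairs joined a member to a tested protein-coding gene, and in 6 pairs both genes passed the threshold. All 6 moved in the same direction. Over all 464 such pairs of tested protein-coding genes, both were called in 260 (56%), and 187 of these (71.9%) moved in the same direction. Of the 14 pairs 11 had the same sign, against 64.4% of all 464, and the exceptions were MRPL27 with EME1 (log2 0.51 and −0.09), MRPS34 with EME2 (−0.47 and 0.09) and MRPL46 with MRPS11. MRPL36 and NDUFS6, a subunit of complex I whose start lies 34 bases away, were both lower, and NDUFS6 had 75.4, 67.9 and 68.5 FPKM in DDX39B-labelled libraries, against 117.5, 125.4 and 110.1 FPKM in control-labelled libraries (log2 −0.73). MRPL57 and SKA3, a kinetochore gene 43 bases away, were both higher, and SKA3 had 20.2, 19.3 and 20.2 FPKM against 8.86, 9.10 and 7.84 FPKM (log2 1.12). MRPL52 rose with the amino acid transporter gene SLC7A7 (log2 1.09 and 2.97) and MRPL41 with PNPLA7 (0.31 and 3.19), so that the sizes differed within a pair. The remaining pairs were MRPL30 with MITD1, both lower, and MRPS18C with HELQ, both higher. MRPL46 and MRPS11 are themselves such a pair, 34 bases apart: MRPL46 had 0.926, 0.998 and 0.870 FPKM in DDX39B-labelled and 1.35, 1.34 and 1.59 FPKM in control-labelled libraries (log2 −0.33, adjusted p = 0.0088), while MRPS11 did not pass the threshold (log2 0.12, adjusted p = 0.231).

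Members often shared the sign of the genes around them, as did tested genes in general. For 68 members with at least 5 other tested protein-coding genes starting within 1 Mb, the member had the same sign as the median of those neighbours in 52 cases (76.5%), against 64.5% of the 9862 tested protein-coding genes with as many neighbours. Pearson's r between the member's log2 fold change and that median was 0.53 and Spearman's rho 0.54 over the 68 members, whose neighbourhoods can overlap and which all come from the same 6 libraries. Over the 9862 genes r was 0.30 and rho 0.36, and the difference from the members was not tested. Around MRPL57, 11 of 12 neighbours were higher and 0 lower (median 1.23), and around MRPL36, 8 of 11 were lower and 2 higher (median −1.005). MRPS26 lay among 25 neighbours with 21 higher and 1 lower, and MRPS34 among 53 with 5 higher and 41 lower. The members with the largest differences were not all matched in size by the genes around them. MRPL23 (log2 1.85) shared the sign of a neighbour median of only 0.25 and MRPS6 (1.80) that of 0.02, and MRPS30 had 0 such neighbours. Against the sign of their neighbours, MRPL53, MRPL37 and MRPL42 were lower among genes with medians of 0.40, 0.32 and 0.36.

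**Figure D4:**
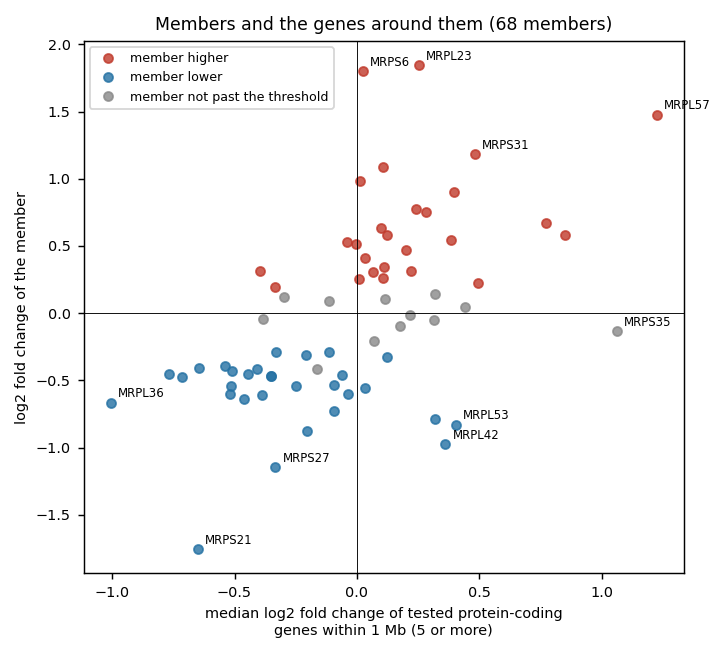
Log2 fold change of each member (y axis) against the median log2 fold change of the other tested protein-coding genes starting within 1 Mb (x axis), for the 68 members with at least 5 such genes, coloured by the member's call. In 52 of the 68 (76.5%, against 64.5% over all such genes) both have the same sign, while MRPS6 and MRPL23 stand high at neighbour medians of 0.02 and 0.25.

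By chromosome, calls were one-sided on some and split on others. Of the 8 members on chromosome 1, 6 were lower and 0 higher, where the other tested genes of that chromosome were 61.1% lower and 24.4% higher. The 8 members on chromosome 2 split into 2 higher and 4 lower (median log2 −0.19), while its other tested genes were 51.1% higher and 26.5% lower. Chromosome 17 held 8 members with 6 higher and 0 lower, against 49.7% higher and 28.9% lower among its other tested genes. On chromosome 6, 5 of 6 members were lower, and on chromosome 5, 4 of 5, where 48.5% and 50.5% of the other tested genes were lower. Both members on chromosome 13, MRPL57 and MRPS31, were higher, where 64% of the other tested genes were. Chromosome 3 held 1 higher and 2 lower members, where 41.2% of the other tested genes were higher and 36.1% lower. Chromosome 19 held 2 of each, against 43.8% higher and 31.2% lower. Chromosome 11 held 5 higher and 2 lower members, while its other tested genes were 36.4% higher and 41.4% lower. Among its members was MRPL21 with 19.7, 20.2 and 17.9 FPKM in DDX39B-labelled and 14.7, 13.4 and 16.9 FPKM in control-labelled libraries (log2 0.34, limma adjusted p = 0.013, and 0.0525 without overexpression replicate 2). CCND1, the cyclin D1 gene on the same chromosome, was 20.2-fold higher. Of the 19 tested protein-coding genes starting within 1 Mb of MRPL21, however, 8 were higher and 7 lower (median log2 0.11). IGHMBP2, head to head with MRPL21, did not pass the threshold (log2 0.11), and MRPL48, also on chromosome 11, was lower (log2 −0.54). Whether copy number differs between the groups was not tested.

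The partners of these proteins moved unevenly. Of 5 ribosomal subunits with other symbols, DAP3, CHCHD1 and GADD45GIP1 fell, AURKAIP1 rose and PTCD3 did not pass the threshold. DAP3, a GTP-binding small-subunit protein, had 17.7, 19.4 and 17.6 FPKM in DDX39B-labelled libraries, against 47.8, 43.6 and 49.4 FPKM in control-labelled libraries, 2.57-fold lower (log2 −1.32, adjusted p = 4.09e-06). Both mitochondrial ribosomal RNAs, read here from a kit for messenger RNA, were lower. MT-RNR2, the RNA of the large subunit, had 2029, 1879 and 1871 FPKM against 6011, 5184 and 6310 FPKM, 3.03-fold lower (log2 −1.60, adjusted p = 5.25e-06), and MT-RNR1, that of the small subunit, 510, 504 and 463 FPKM against 889, 659 and 1270.0 FPKM (log2 −0.88, adjusted p = 0.00935). The 13 messenger RNAs that these ribosomes translate went the other way, with 8 higher (61.5%), 0 lower and 5 not past the threshold (median log2 0.65). Over all tested genes 37.5% were higher and 39.3% lower. With quantile normalization 9 were higher and 4 lower, while on the sum of reads and with voom 12 were higher and 0 lower. MT-CYB (cytochrome b) had 4287, 4037 and 4215 FPKM in DDX39B-labelled and 1259, 1542 and 990.3 FPKM in control-labelled libraries, 3.31-fold higher.

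Genes of ribosome assembly and ribosomal RNA modification split evenly, with 9 of 28 higher (32.1%), 10 lower (35.7%) and 9 not past the threshold. Over all tested genes 37.5% were higher and 39.3% lower, and the next 2 lists are to be read beside those shares too. The ribose methyltransferase MRM1 had 16.6, 15.8 and 15.9 FPKM in DDX39B-labelled libraries, against 3.50, 4.66 and 2.22 FPKM in control-labelled libraries, 4.64-fold higher. MRM3, of the same kind, was 2.21-fold higher, and TFB1M, which methylates the small-subunit RNA, 2.03-fold higher, while MTERF3 was 1.76-fold, METTL15 1.68-fold and RPUSD3 1.63-fold lower. Translation factors gave 5 higher (31.2%), 5 lower (31.2%) and 6 not past the threshold of 16. The initiation factor MTIF3 was 2.29-fold, the release factor MTRF1 2.14-fold and GUF1 1.85-fold higher, whereas LRPPRC, which stabilises mitochondrial messenger RNAs, was 1.92-fold, the recycling factor MRRF 1.77-fold and the insertase OXA1L 1.53-fold lower. Mitochondrial aminoacyl-tRNA synthetases gave 7 higher (41.2%), 6 lower (35.3%) and 4 not past the threshold of 17. In the fits without 1 library 3 to 6 were higher (3 without overexpression replicate 2 or 3, and 4 without overexpression replicate 1 or control replicate 1). RARS2 was 2.18-fold higher and WARS2 4.48-fold lower.

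Mitochondrial transcription and its nuclear regulators were mostly lower, with 11 of 14 lower (78.6%) and 3 higher (21.4%, median log2 −0.58). Over all tested genes 39.3% were lower and 37.5% higher. PPARGC1A, the coactivator PGC-1α of mitochondrial biogenesis, had 0 reads in DDX39B-labelled libraries, against 4.12, 3.10 and 3.80 FPKM or 1991 reads in control-labelled libraries, at least 713-fold lower with a floor of 3 reads for the group. Its relatives PPARGC1B and PPRC1 were 3.86-fold and 2.71-fold lower. GABPB1, the partner of the ETS factor GABPA, had 2.45, 3.12 and 3.10 FPKM in DDX39B-labelled and 9.03, 6.92 and 10.0 FPKM in control-labelled libraries, 3.00-fold lower, whereas GABPA itself was 1.33-fold higher. YY1 was 1.46-fold lower and NRF1 1.29-fold lower. The 3 higher genes were GABPA, the elongation factor TEFM and the terminator MTERF1.

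**Figure D5:**
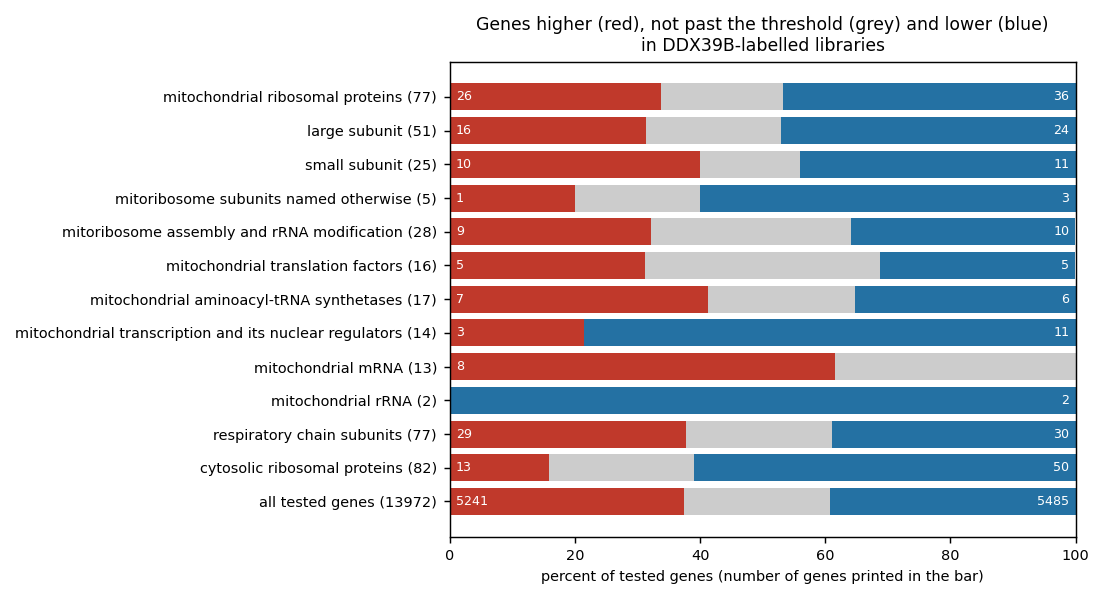
Percent of tested genes higher (red), past neither threshold (grey) and lower (blue) in DDX39B-labelled libraries for the members, both subunits, the other lists and all tested genes, with the number tested in parentheses and the numbers called in the bars. The members show 26 higher and 36 lower of 77, the cytosolic ribosomal proteins 13 and 50 of 82.

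Set beside the lists most like them, the members lay between. Of 82 tested cytosolic ribosomal proteins, 13 were higher and 50 lower (median log2 −0.33), with 21 higher and 46 lower on the sum of reads and 23 and 47 after quantile normalization. Of 77 tested respiratory chain subunits, 29 were higher and 30 lower (median 0.06). Over all tested genes 37.5% were higher and 39.3% lower. The difference between these lists and the members was not tested. Reads on pseudogenes of the members were few: 75 were listed, 54 of them with 0 reads in every library, and they held 0.291% to 0.335% of the members' own reads in DDX39B-labelled and 0.172% to 0.205% in control-labelled libraries. These reads were spread unevenly. MRPS31P5 had 241 over DDX39B-labelled and 79 over control-labelled libraries and MRPS31P4 had 97 and 60, where MRPS31 had 2013 and 768. MRPL45P2 had 247 and 211, where MRPL45 had 3351 and 2058. Exons of 16 members overlap a gene on the same strand and those of 29 a gene on the other strand, and 37 members share no exon base. How reads in shared bases were counted is not given in the sources used here.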

How the data were processed

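Total RNA of 6 libraries labelled SW480 was sequenced after a SMARTER mRNA library kit, per the labels' protocols. The authors deposited 1 FPKM table, genes by libraries, with gene lengths. Its headers name only samples, and 0 further value columns were left unused. Aligner, counter, use of strand and FPKM denominator are, in the sources used here, not given. The build is mm10 per the submitters' processing notes, a mouse build, but all 58735 identifiers are human and match GENCODE 29 on GRCh38 in start, end and symbol, so coordinates are those of the table. Each FPKM times gene length, divided by the smallest such product of its library, came out whole within 0.001 for 100% of values and was taken as reads.

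Because the table holds FPKM, limma 3.58.1 (R 4.3.3) with a mean-variance trend was fitted to log2(FPKM + 1), two-sided, by group alone, for the 13972 genes averaging 1 FPKM or more, with Benjamini-Hochberg adjustment across them. Log2 fold changes on this scale understate the change of low genes; folds are ratios of mean FPKM. The fit was tested on simulated reads in which only a small share of genes differed between the groups. That test does not cover data in which most genes differ, as here. Replicate numbers come from the titles, and same-numbered libraries did not deviate together (correlations of −0.01, −0.02 and 0.01), so the numbers were not used as a block. Bounds and floors of 3 reads cover counting error only.

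Members, lists and alternatives were chosen with earlier results of these data known. All members could be named. Values per library are given for the 10 largest differences in each direction with groups that do not overlap, the 5 highest levels, the MRPS18 paralogues and members under the filter. They are also given, outside this rule, for MRPL12, MRPL18, MRPL21, MRPL46 and MRPS36. From other lists up to 3 genes per direction were taken by size. NRF1, YY1, GABPA, MT-CYB, H19, IGF2, MRPL23-AS1, SLC5A3, CCND1, NDUFS6, SKA3 and the heat shock genes were chosen after their values were seen. Promoters are RefSeq windows of GRCh38.p14, and motifs were searched with Python 3.11.15 and pandas 2.3.3. The 14 alternatives were another pseudocount (0.1), filter (none, or 5 FPKM), scaling (FPKM on the sum of reads, quantile, voom on the reads), the genes tested, the replicate number as a block, and each library left out in turn.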

Additional observations from a re-analysis of the deposited data

How the results depend on the processing

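Of the 62 members past the threshold, 53 kept their call and direction in every alternative that tested them, the filter of 5 FPKM aside, and 0 reversed. Calls were lost in one or more fits for MRPL13, MRPL16, MRPL21, MRPL24, MRPL33, MRPL39, MRPL43, MRPS14 and MRPS18C; the adjusted p of MRPL33 rounds to 0.05. Voom moved the median of all genes by 0.11 on the log2 scale and FPKM on the sum of reads by 0.10. The members' median of −0.13 became −0.164 with no filter and −0.164 with 5 FPKM, −0.0277 on the sum of reads, −0.087 after quantile normalization and −0.0246 with voom. Members higher and lower numbered 30 and 32 on the sum of reads and with voom, and 22 to 27 and 32 to 37 without 1 library.

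Over all genes, 8155 were higher with no filter, and with 5 FPKM 2784 were higher and 3434 lower. With 5 FPKM, higher calls came to 3 for translation factors and 1 for transcription regulators, as fewer genes were tested. With no filter 4 aminoacyl-tRNA synthetases were higher, and 3 to 6 without 1 library. Higher cytosolic ribosomal proteins numbered 21 on the sum of reads, 23 after quantile normalization and 24 with voom. After quantile normalization 4 mitochondrial messenger RNAs were lower, and with protein-coding genes only 0 mitochondrial ribosomal RNAs were called, as they are then left out. Where not named, the cause was not tested.

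Members past neither threshold changed sign as follows. On the sum of reads MRPL12 was at 0.0115, MRPL38 at 0.00892, MRPL40 at 0.0592, MRPL44 at 0.00397 and MRPS15 at 0.0880. After quantile normalization MRPL12 was at 0.0346, MRPL40 at 0.0488, MRPS15 at 0.0995 and MRPS35 at 0.00581. With voom MRPL12 was at 0.0158, MRPL38 at 0.0282, MRPL40 at 0.0704, MRPL44 at 0.00836 and MRPS15 at 0.0953. Without 1 library, MRPL1 ran from −0.0706 to 0.148, MRPL38 from −0.160 to 0.0411, MRPL40 from −0.174 to 0.0378, MRPL50 from −0.0515 to 0.0692 and MRPS15 from −0.0373 to 0.00855. Calls were gained as well: MRPL20, MRPL22 and MRPS9 were higher on the sum of reads, after quantile normalization and with voom (adjusted p of 0.0129 to 0.044), and MRPL47 on the sum of reads, with voom and without control replicate 3. Without control replicate 2, MRPL18, MRPL32 and MRPS35 were lower and MRPS9 and MRPS11 higher, and without control replicate 3 MRPL40 was lower.

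With the replicate number as a block, 24 members were higher and 34 lower, and MRPL13, MRPL33, MRPL39 and MRPS18C lost their calls; over all genes 5111 were higher and 5395 lower. At this depth MRPS24 with 25 and 49 reads was too low to test.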
